A study of Mus musculus with 4 samples.

Results

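The Pparg locus was examined in 4 libraries of open chromatin from mouse adipose progenitors, the stromal cells from which new fat cells arise. It was taken as chromosome 6 from 115250000 to 115500000 on the mouse build mm9, a stretch of 250 kb chosen by its position around the gene. The gene's marks on that build, rounded to 10 kb, were a first promoter near 115.31 Mb, a second promoter near 115.37 Mb and an end near 115.44 Mb. Overlapping peaks, by 1 bp or more, were joined across lists into regions, and 16 of the 83319 regions of the genome lay in the locus, built from 40 peaks. They are numbered 1 to 16 along the chromosome. All cells were freshly isolated, without treatment, from C57BL/6 mice aged 16 weeks. Libraries SAT 1 and SAT 2 came from subcutaneous fat and VAT 1 and VAT 2 from visceral fat. The labels name no sorting markers and give neither the number of animals nor any pooling, so p-values measure only the spread between these libraries, which may be technical. Accessibility was measured by ATAC-seq: a transposase inserts sequencing adapters where DNA is exposed, and clusters of reads are called as peaks.

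Pparg encodes PPARγ, a nuclear receptor that binds DNA together with RXR and is required to form adipocytes. The first promoter drives the widely expressed Pparg1 transcript. The second drives Pparg2, which is largely restricted to fat, encodes a longer amino terminus and is induced by C/EBP factors as progenitors differentiate. How much of the receptor the progenitors studied here held was not measured.

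The promoters differ in base composition, and the 250 bases before each start in RefSeq are shown to let the reader compare them. They come from build GRCm38.p6, plus strand, so they were not placed against the mm9 peaks, and whether a peak covers them was not examined. Capitals mark every match, on either strand, to the GC box GGGCGG, the TATA box TATAAA, the CCAAT box, the nuclear receptor half-site AGGTCA or the C/EBP-like sequence TTGCNNAA. The first sequence is chr6:115360894-115361143, the second, also at the 5′ end of the gene, is chr6:115362099-115362348, and the third, at the downstream promoter, is chr6:115421816-115422065.
Pparg start 1: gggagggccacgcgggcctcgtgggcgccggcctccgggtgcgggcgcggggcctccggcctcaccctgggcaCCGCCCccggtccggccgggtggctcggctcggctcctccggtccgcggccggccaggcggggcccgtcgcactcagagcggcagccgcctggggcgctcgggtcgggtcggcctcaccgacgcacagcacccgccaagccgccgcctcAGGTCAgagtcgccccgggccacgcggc
Pparg start 2: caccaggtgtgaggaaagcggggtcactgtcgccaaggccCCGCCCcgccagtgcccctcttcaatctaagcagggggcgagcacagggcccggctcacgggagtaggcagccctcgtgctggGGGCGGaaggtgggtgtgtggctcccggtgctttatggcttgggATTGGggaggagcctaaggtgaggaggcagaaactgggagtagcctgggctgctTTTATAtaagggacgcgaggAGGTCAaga
Pparg start 3: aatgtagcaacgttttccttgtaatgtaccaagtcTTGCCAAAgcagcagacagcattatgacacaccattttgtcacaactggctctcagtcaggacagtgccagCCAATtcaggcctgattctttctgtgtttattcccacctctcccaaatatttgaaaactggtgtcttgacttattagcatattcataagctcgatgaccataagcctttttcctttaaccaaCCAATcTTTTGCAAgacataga

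The sequence before start 1 was 82.4% G or C and held 38 CG dinucleotides, and 98.4% of the 32851 RefSeq promoter sequences of the same length held as many or fewer. Before start 2 the values were 63.6% and 12. Before start 3 they were 40.8% and 2, against medians of 52.4% and 6 over all promoters. GGGCGG occurred before starts 1 and 2 and in 32.7% of all promoters, and AGGTCA before the same 2 starts and in 14.0% of all. TATAAA, found in 12.4% of all promoters, occurred before start 2, and CCAAT, found in 33.8%, before starts 2 and 3. TTGCNNAA was present 2 times before start 3, not before the others, and in 9.56% of all promoters. A match describes letters and does not show that a factor binds there.

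The SAT 2 list stood apart before any comparison of depots. It held 22845 peaks genome-wide, against 56823 in SAT 1, 56907 in VAT 1 and 62279 in VAT 2. The lists give a score for each peak, a whole number of 20 or more from the authors' peak caller, and no read counts, so no depth can be given and chromatin without a peak is not shown to be closed. Scores are given below as deposited, together with their percentile, the share of the peaks in the same list with a score at or below it. Since no mm9 annotation was used here, exons and introns were not assigned and cell type markers could not be checked.

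The locus held 14 peaks in SAT 1, 3 in SAT 2, 11 in VAT 1 and 12 in VAT 2. Their covered length was 727 bp in SAT 2 and 2589, 2889 and 2945 bp in SAT 1, VAT 1 and VAT 2. The longer lists were thus alike in number and extent, and SAT 2 was low in both. Most regions lay downstream of the second promoter mark. Upstream of the first promoter mark there was 1 region in 60 kb, between the promoter marks there were 3 in 60 kb, from the second promoter to the gene's end 5 in 70 kb, and beyond the end 7 in 60 kb. Regions with a peak in all 4 libraries numbered 0, 1, 1 and 1 in these parts, so they did not follow that increase. Regions 2 and 5 lie about 1 kb past a rounded mark, and a shift of the mark would place them in the part before it. The longest stretches without a peak in any library were 47.4 kb upstream of the first promoter, 38.2 kb inside the gene downstream of region 6, and 37.8 kb between the promoters.

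**Figure D1:**
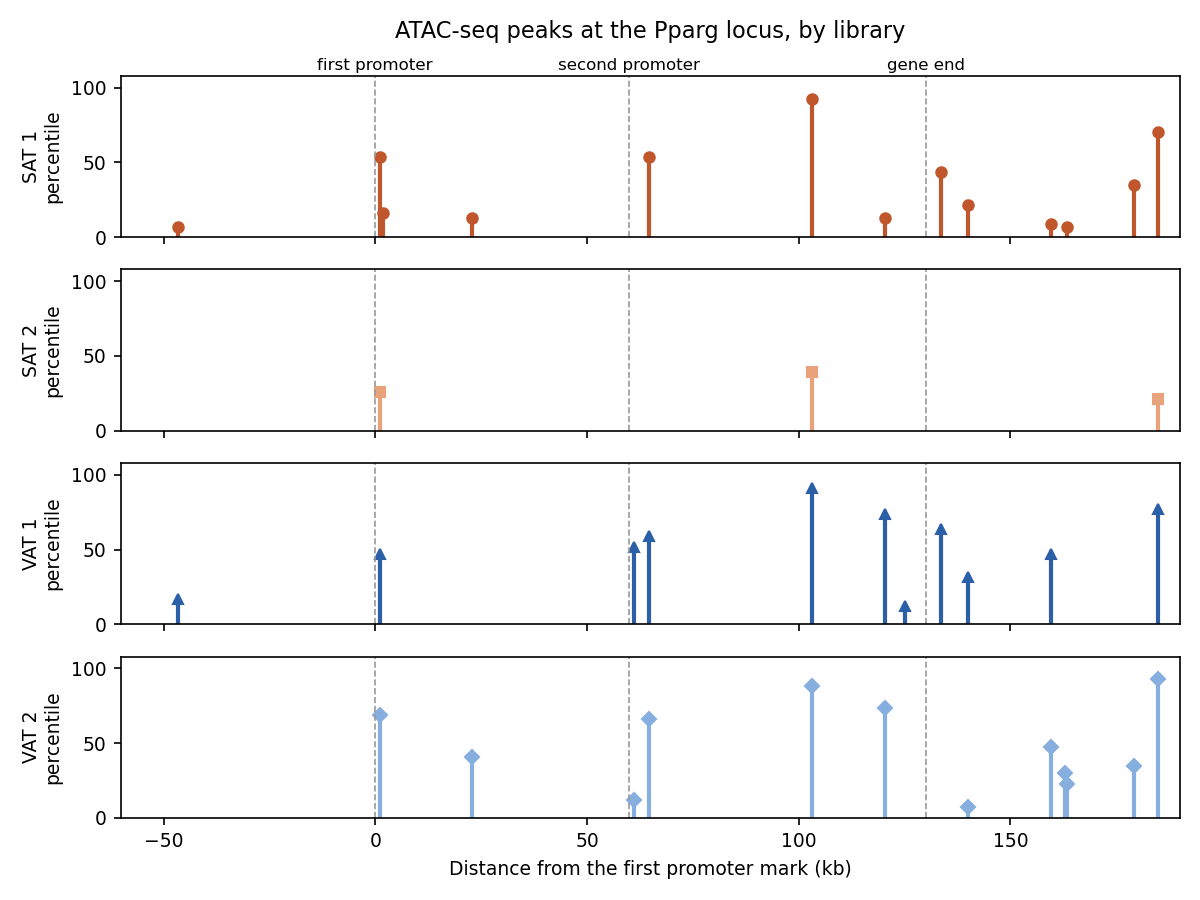
Score percentile (vertical axis, percent of the peaks of the same list with a score at or below it) of the strongest peak in each region, by distance in kb from the first promoter mark. Each panel is 1 library, each stem is 1 region, and dashed lines are the gene's marks, which are rounded to 10 kb. SAT 2 shows 3 stems, and the other libraries show 11 to 13.

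A peak near the first promoter mark was present in every library. Region 2, at 115310871 to 115311276, was centred 1.07 kb from the first promoter mark and was the nearest region to it. Its scores were 106 in SAT 1, 59 in SAT 2, 99 in VAT 1 and 152 in VAT 2. The percentiles were 53.4, 25.6, 47.2 and 69.0 in the same order, so that the peak stood in the middle of most lists and SAT 1 lay between the visceral libraries. Because the mark is rounded to 10 kb, it cannot be told here whether the region covers the first promoter itself. Its mean percentile was 39.5 ± 19.7 in subcutaneous and 58.1 ± 15.4 in visceral libraries (SD, n = 2 each), a difference of 18.6 points that did not exceed the spread (two-sided exact permutation test, p = 0.667, where 0.333 is the smallest p that 2 against 2 libraries allow). Ranked among the 19350 regions with a peak in all 4 libraries, so that each list is ranked over the same regions, the percentiles were 14.5, 19.8, 10.8 and 21.9, and the visceral mean was lower by 0.765 points. By this rank the region belonged to the weaker regions open in all libraries. The 4 peaks shared 183 bp, from 115311015 to 115311197. A narrow peak followed at 115311717 to 115311816 (region 3), in SAT 1 alone, with a score of 53 and a percentile of 15.8.

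Between the promoters, region 4 at 115332746 to 115333121 had peaks in SAT 1 and VAT 2. The SAT 1 peak was 89 bp wide with a score of 46 and a percentile of 12.7, and the VAT 2 peak was 376 bp wide with a score of 79 and a percentile of 41.0. It was thus found in 1 library of each depot.

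Around the second promoter, the promoter of the fat-restricted transcript, no region was found in all libraries. Region 5, at 115370922 to 115371205, was centred 1.06 kb from the second promoter mark and was the nearest region to it. It was the only region of the locus with peaks in both visceral libraries and in neither subcutaneous one, and 4.60% of all merged regions had that pattern. Its scores were 109 in VAT 1 and 43 in VAT 2, at the percentiles of 51.6 and 11.9. The peak was 284 bp wide in VAT 1 and 98 bp wide in VAT 2, and the narrower peak lay within the wider one. Of the 3835 regions found in both visceral libraries only, 36.4% had a weaker peak at or below its percentile of 11.9, so that it was an ordinary member of that class. Leaving out SAT 2 could not change the pattern, since SAT 1 had no peak there either. With the top 50% of each list by score, only the VAT 1 peak was left, and with lists of equal length, neither was.

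Region 6, at 115374523 to 115374759, was centred 4.64 kb from the second promoter mark, with 3.32 kb between it and region 5 in which no library had a peak. Scores were 107 in SAT 1, 130 in VAT 1 and 141 in VAT 2, with no peak in SAT 2. The percentiles were 53.7, 59.2 and 66.2, so the subcutaneous peak was the lowest by 5.53 points. Of the 16206 regions with a peak in every library except SAT 2, 23.3% (3770) had a gap at least as large. In 3186 others of the 16206, SAT 1 lay above both visceral libraries by as much. Whether either region covers the second promoter itself cannot be told for the same reason.

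The strongest open site within the gene lay far downstream of both promoters. Region 7, at 115412930 to 115413307, was centred 43.1 kb beyond the second promoter mark and 26.9 kb before the gene's end mark. Its scores were 300 in SAT 1, 76 in SAT 2, 319 in VAT 1 and 289 in VAT 2. It was the highest-scoring peak of the locus in SAT 1, SAT 2 and VAT 1 and the second in VAT 2, after region 16. The percentiles were 92.1 in SAT 1, 39.1 in SAT 2, 90.9 in VAT 1 and 88.3 in VAT 2. SAT 1 was the highest and SAT 2 the lowest, so the depots overlapped, and the mean difference of 24.0 points was within the spread (65.6 ± 37.5 against 89.6 ± 1.86, SD, n = 2 each, exact permutation test, p = 1.0). Without SAT 2 the visceral mean was lower by a small amount, with a difference of -2.56 points. All 4 peaks covered the 170 bp from 115413016 to 115413185.

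Region 8, at 115430406 to 115430637, showed the widest gap of the locus between SAT 1 and the visceral libraries. It was centred 9.48 kb before the gene's end mark. Its scores were 46 in SAT 1, 189 in VAT 1 and 174 in VAT 2, with no peak in SAT 2. The percentiles were 12.7 in SAT 1, 74.0 in VAT 1 and 73.7 in VAT 2, so the visceral libraries lay together and SAT 1 was far below them. Peak width was 217 bp in VAT 1, 190 bp in VAT 2 and 94 bp in SAT 1. The lower visceral percentile exceeded that of SAT 1 by 61.0 points, a gap reached by 9 of the 16206 regions missing only from SAT 2 (0.0555%). A gap of that size in the other direction, with SAT 1 above both visceral libraries, occurred in 3 others of the 16206. With lists of equal length the region had peaks in VAT 1 and VAT 2 only, since the shortened SAT 1 list stopped at a score of 120. The gap rests on 1 subcutaneous library, was picked out after its values were seen, and was not tested.

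Nearer the end of the gene, VAT 1 alone had a peak at 115434887 to 115435082 (region 9), with a score of 51 and a percentile of 12.4. Just past the end mark, by 3.54 kb, region 10 at 115443341 to 115443734 was the nearest region to it and had peaks in both replicate 1 libraries only, with scores of 89 in SAT 1 and 146 in VAT 1. Their percentiles were 43.8 and 63.6. The same pattern held far upstream at region 1 (115263326 to 115263485), where SAT 1 scored 38 and VAT 1 scored 54, at the percentiles of 6.46 and 17.0. Genome-wide 9.37% of regions had peaks in both replicate 1 libraries only, and 0.652% in both replicate 2 libraries only, a pattern with 0 regions here.

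**Figure D2:**
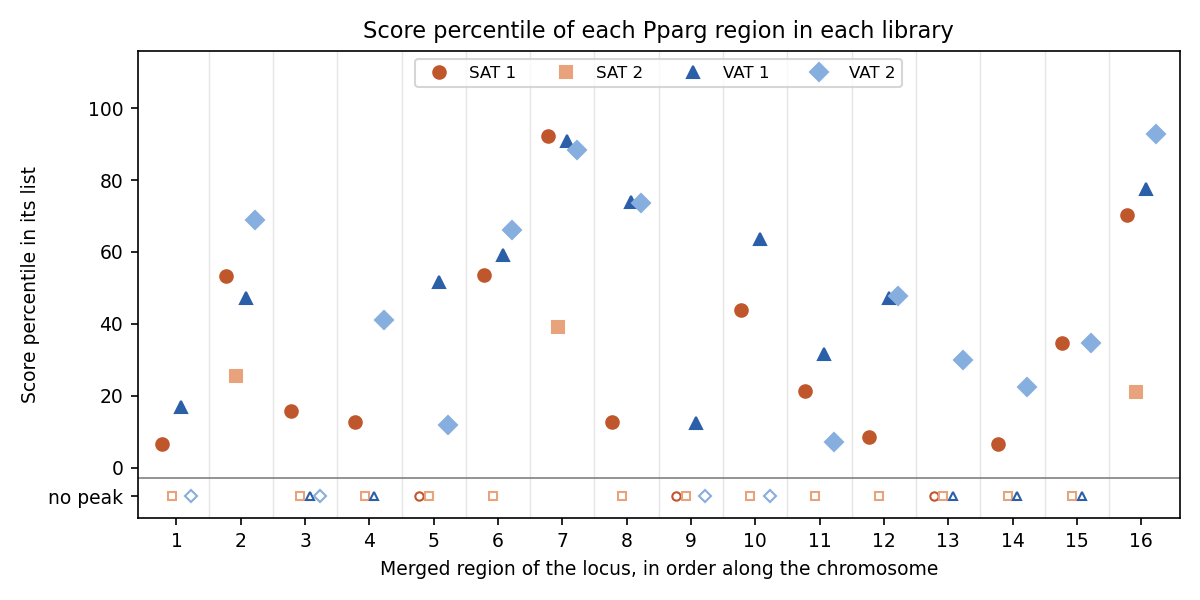
Score percentile (vertical axis) of the 16 regions in order along the chromosome (horizontal axis), with 1 filled marker for each library that had a peak. Open markers below the line stand for libraries without a peak. SAT 2 has filled markers at regions 2, 7 and 16, and at region 8 SAT 1 lies at 12.7 while VAT 1 and VAT 2 lie at 74.0 and 73.7.

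Farther beyond the gene the locus held several weak regions and 1 strong one. Region 11, at 115449575 to 115450163, was made of 2 peaks in SAT 1 and 1 each in VAT 1 and VAT 2. The strongest peaks scored 57 in SAT 1, 73 in VAT 1 and 40 in VAT 2, at the percentiles of 21.3, 31.5 and 6.98, with SAT 1 between the visceral libraries. Region 12, at 115469499 to 115469761, scored 44 in SAT 1, 99 in VAT 1 and 93 in VAT 2. Its percentiles of 8.62, 47.2 and 47.8 again had SAT 1 below both visceral libraries, with a gap of 38.6 points that 1.47% of the regions missing only from SAT 2 reached. These were 239 regions, and in 112 others SAT 1 lay above both visceral libraries by as much. Region 13, at 115472783 to 115473000, was found in VAT 2 alone with a score of 67. Regions 14 and 15, at 115473329 to 115473543 and 115489041 to 115489336, had peaks in SAT 1 and VAT 2, with scores of 38 and 59 in the former and 72 and 70 in the latter.

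Region 16, at 115494533 to 115494969, lay 54.8 kb past the gene's end mark. Its scores were 153 in SAT 1, 57 in SAT 2, 206 in VAT 1 and 359 in VAT 2, and the percentiles were 70.2, 20.9, 77.4 and 92.9. Both visceral values lay above both subcutaneous ones. The means were 45.5 ± 34.9 and 85.2 ± 11.0 (SD, n = 2 each), a difference of 39.6 points (exact permutation test, p = 0.333, the smallest the design allows). Without SAT 2 the difference was 15.0 points. Among regions with a peak in all libraries the percentiles were 31.5, 15.6, 44.2 and 77.4, again without overlap. The region was not assigned to a gene.

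Read over the locus, regions found in exactly 2 libraries took a larger share than in the genome (6 of 16, 37.5%, against 19.8%) and regions found in 1 library a smaller one. Peaks in all 4 libraries were found in 3 of the 16 regions (18.8%), against 23.2% of all merged regions. Peaks in every library except SAT 2 were found in 4 of the 16, against 19.5% of all regions, and peaks in 1 library in 3 (18.8%, against 36.4%). Regions 4, 14 and 15, with peaks in SAT 1 and VAT 2 only, made up 18.8% against 4.93% of the genome. Peaks in both subcutaneous libraries alone occurred in 0 regions of the locus and in 0.110% of all regions. The 3 regions open in every library were 406, 378 and 437 bp wide, below the median of 524 bp over all such regions. None was below their lower quartile of 378 bp, and the upper quartile was 707 bp.

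Comparing the depots over the whole locus asked whether the chromatin of these 250 kb, which extend beyond Pparg, is more open in progenitors of one fat. Peak density overlapped between the depots. Per 10000 peaks of its list the locus held 2.46 in SAT 1, 1.31 in SAT 2, 1.93 in VAT 1 and 1.93 in VAT 2. The subcutaneous libraries lay on both sides of the visceral ones, at 1.89 ± 0.814 against 1.93 ± 0.00436 (SD, n = 2 each, exact permutation test, p = 1.0). Without SAT 2 the visceral value was lower by 0.534. Covered length averaged 1658 ± 1317 bp in subcutaneous and 2917 ± 39.6 bp in visceral libraries. The visceral libraries were both higher (exact permutation test, p = 0.333), but the difference of 1259 bp fell to 328 bp without SAT 2. With only the gene counted, the difference in covered length was 819.5 bp.

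The depot difference in the rank of the locus peaks changed direction when the lists were cut to equal length. In the whole lists, the median percentile of the peaks in the locus was 18.5 in SAT 1, 25.6 in SAT 2, 51.6 in VAT 1 and 44.4 in VAT 2. Both visceral values were higher, by 25.9 points on average (22.0 ± 4.96 against 48.0 ± 5.12, SD, n = 2 each), over 14, 3, 11 and 12 peaks. This measure was chosen after the values were seen and was not tested. Of the 3289 windows of 250 kb with at least 3 peaks in each library, 21.1% had both visceral medians above both subcutaneous ones and 11.2% the reverse, so the order was not rare. Without SAT 2 the difference was 29.4 points. With lists of equal length the direction turned, to -5.42 points, from 2 peaks in SAT 1, 3 in SAT 2, 4 in VAT 1 and 5 in VAT 2. That cut removed the lower-scoring peaks of the longer lists, so a smaller set of locus peaks was compared. In the 3 regions open in every library, the median percentile was higher in visceral lists by 35.0 points (exact permutation test, p = 0.333), which became 10.7 points without SAT 2.

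Percentiles of regions found in every library depend on list length, and this sets the background. Both visceral percentiles exceeded both subcutaneous ones in 32.5% of the 19350 regions open in all libraries, and the reverse held in 3.01%. Ranked among these regions alone, the shares were 14.8% and 15.7%. At the Pparg locus 1 of 3 regions, region 16, had the visceral values higher by either rank. Of the 4 regions missing only from SAT 2, regions 6, 8 and 12 had both visceral percentiles above SAT 1, against 31.6% of such regions in the genome, and 30.2% had SAT 1 above both. These regions lie in 1 locus and share their libraries.

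**Figure D3:**
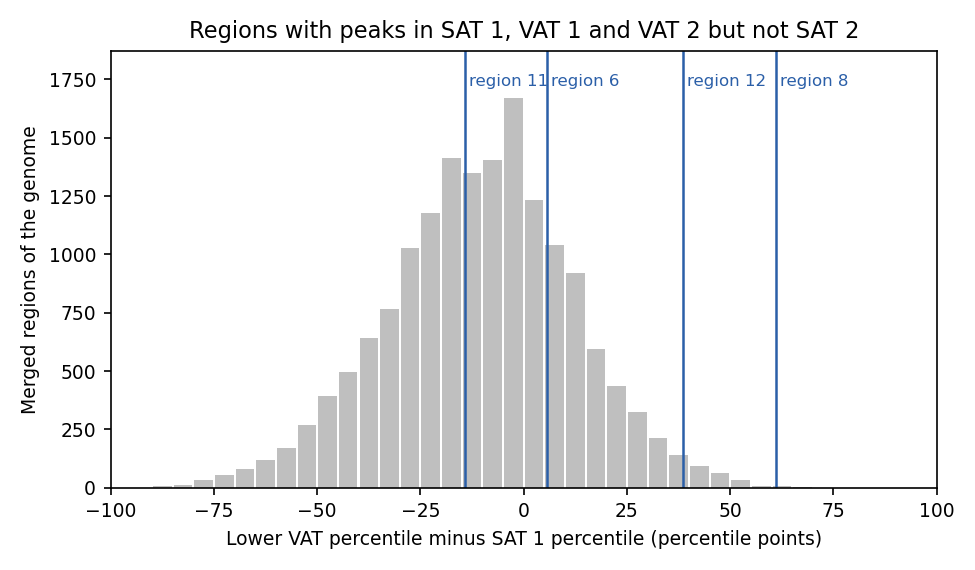
Lower of the 2 visceral percentiles minus the SAT 1 percentile (horizontal axis, percentile points) for the 16206 regions with peaks in every library except SAT 2, in bins of 5 points (vertical axis, number of regions). Lines mark the 4 Pparg regions of this kind, of which region 8 stands at 61.0 and region 12 at 38.6, to the right of most regions.

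Missing peaks in SAT 2 were common at this rank. Of the 35556 regions with peaks in SAT 1, VAT 1 and VAT 2, 54.4% had a peak in SAT 2, a share that rose from 5.34% for regions with a mean percentile of 10 to 20 in the other libraries to 99.4% for those above 90. Regions 7 and 16, with means of 90.4 and 80.2, had a SAT 2 peak, as did 99.4% and 91.6% of regions in their bins of 10 points. Region 2, the nearest to the first promoter mark, had a SAT 2 peak at a mean of 56.5, where 33.6% of regions had one. Regions 6 and 8 fell in the same bin, with means of 59.7 and 53.5, and had none. Regions 11 and 12 lay lower, at 19.9 and 34.5. Absence from SAT 2 alone therefore cannot be told apart from the shortness of that list.

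**Figure D4:**
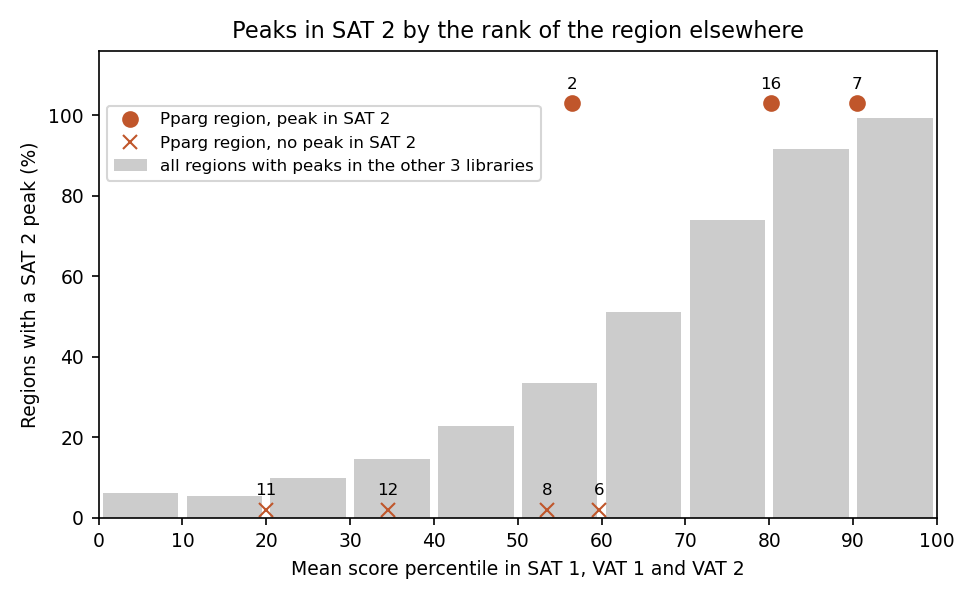
Share of regions with a SAT 2 peak (vertical axis, percent) by the mean score percentile in SAT 1, VAT 1 and VAT 2 (horizontal axis, bins of 10). Grey bars are all 35556 regions with peaks in those libraries, dots at the top are the Pparg regions with a SAT 2 peak and crosses at the bottom are those without, labelled by region number. Region 2 has a peak in a bin where the share is 33.6%.

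When every list was cut to its 22845 highest-scoring peaks, regions 7 and 16 were the only ones with a peak in all libraries. Region 2 then had peaks in SAT 2 and VAT 2, since its SAT 1 and VAT 1 scores of 106 and 99 were below the lowest scores of 120 and 134 in the cut lists. Region 6 had a peak in VAT 2, and region 10 in VAT 1.

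Against other windows of the genome, the Pparg locus was moderately rich in open chromatin. Its 16 regions compared with a median of 8 over the 8454 windows of 250 kb that held any, and 79.6% of windows had as many or fewer. Its 14 peaks in SAT 1 exceeded or matched 87.9% of windows, its 3 in SAT 2 70.5%, its 11 in VAT 1 79.7% and its 12 in VAT 2 79.3%. By Euclidean distance of log2(1 + peaks) over the 4 libraries, 1 window had the same counts, on chromosome 13 from 38250001 to 38500000. The next were on chromosome 9 from 116000001 to 116250000 (distance 0.12) and on chromosome 1 from 166000001 to 166250000 (distance 0.15). The likeness is of peak numbers only, and no gene was named for these windows.

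**Figure D5:**
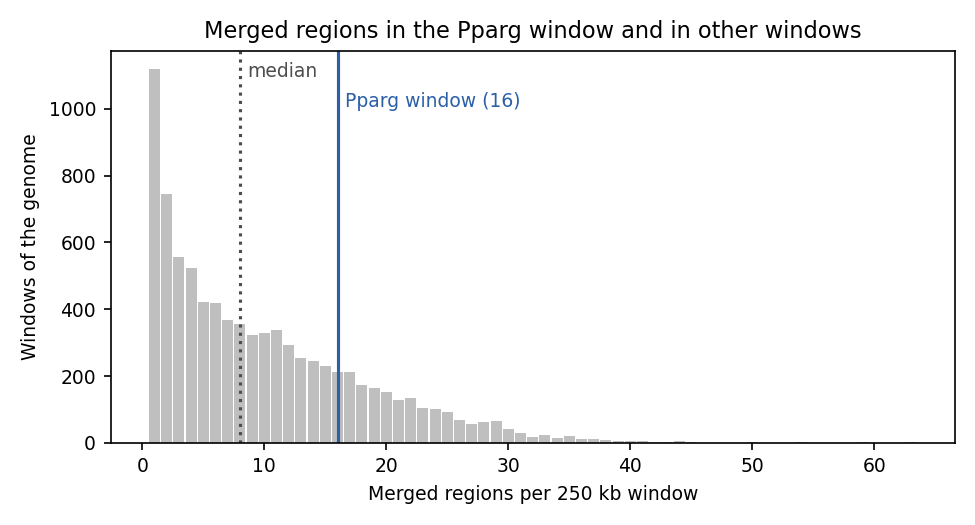
Number of 250 kb windows of the genome (vertical axis) by how many merged regions they hold (horizontal axis), for the 8454 windows with at least 1. The solid line marks the Pparg window with 16 regions and the dotted line the median of 8.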

How the data were processed

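The 4 libraries were grouped by their titles. The submitters' processing notes name Bowtie2, MACS2 and build mm9, and no version, option or filter is given in the sources used here. The deposited lists hold 1 score per peak, called per library, with no counts. Scores were used as percentiles within a list. Peaks were joined at 1 bp of overlap, and positions count from 1. Libraries were compared with exact permutation tests, which cannot pass 0.05 with 2 against 2. Counts of regions have no test, since regions are not replicates. Named regions were those with peaks in all libraries, those nearest each gene mark, and those in both libraries of 1 depot or 1 replicate number only. Regions 8 and 12 and the others were described after their values were seen. Alternatives were shorter lists, other rules for joining, other windows, and leaving out each library. The members and lists were chosen with earlier results of these data known. Planned checks of marker and adipogenic genes needed an mm9 annotation and were not run. Joining the peak lists gave the regions of bedtools 2.31.1, and counts of regions by the libraries with a peak were tested on simulated lists. Python 3.11.15, numpy 2.4.6, pandas 2.3.3 and matplotlib 3.10.9 were used. Promoter sequences are RefSeq's (GRCm38.p6), where 3 starts matched Pparg.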

Additional observations from a re-analysis of the deposited data

How the results depend on the processing

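With 2 libraries against 2, no alternative could pass 0.05, so only direction and size are compared. Leaving out each library in turn, the difference in peak density (visceral minus subcutaneous, per 10000 peaks) lay between -0.534 and 0.617, negative only without SAT 2. The density difference was -0.0988 with the locus widened by 50 kb. It was 0.88 with lists of equal length and 1.15 in the top 50% of each list, where few locus peaks were left. Covered length and the median percentile over regions with peaks in all libraries kept their direction in all alternatives run. Other rules for joining peaks left the latter difference at 35.0 points. The replicate block, given below, could not change either difference, since it averages the same values. The difference in median percentile of the locus peaks was -5.42 with lists of equal length. Regions with a peak in every library numbered 3 to 7 when 1 library was left out (7 without SAT 2) and 0 in the top 50% of each list, where their percentiles could not be compared. Visceral-only regions numbered 1 to 5, subcutaneous-only regions 0 to 1, and regions whose depots did not overlap 1 to 5; these counts can rise because fewer libraries then have to meet the rule. The difference at region 2 was -0.765 when ranked among regions with peaks in all libraries, and that at region 7 lay between -2.56 and 50.5, negative without SAT 2. With replicate number as a block the differences were 0.0414 peaks per 10000, 1259 bp and 35.0 points (exact sign-flip permutation, p = 1.0, 0.5 and 0.5, where 0.5 is the smallest p). Within replicate 1 they were -0.531 peaks per 10000, 300 bp and 7.23 points. Within replicate 2, which holds SAT 2, they were 0.614 peaks per 10000, 2218 bp and 62.7 points. The labels do not say that equal numbers mark a shared animal or day. Between libraries of the same replicate number, deviations from depot means correlated at 0.215 over the 19350 regions. With 2 libraries per depot these deviations mirror each other, so unlike numbers must give the same size with the opposite sign.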
